A study of Mus musculus with 24 samples.

Results

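The genes described here were H2az2, H2az1, H2aj and H2ax, which encode variant forms of the core histone H2A. They were 4 of the 18193 genes that had a probe set with a single gene symbol in the array annotation. H2az2 was followed through both of its probe sets and each other gene through its probe set with the highest mean over 24 arrays, so that 5 of their 8 probe sets were followed. The genes were chosen because earlier results of these data had shown H2az2 and H2aj lower in knockouts. Their knockout minus control differences are therefore given as descriptions without a test.

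The series profiled the mandible and maxilla of mouse embryos at embryonic day 12.5 that were on a C57B6 background. Knockout embryos came from crosses of Wnt1cre;Tgfbr2fl/+ with Tgfbr2fl/fl mice, in which the Wnt1-Cre transgene, active in neural crest, deletes the floxed type II TGF-beta receptor gene, and they were recognised by cleft palate and calvarial defects. Controls were littermates. Their genotype is not stated in the labels, so whether any of them carried the transgene is not known. Each knockout and control mandible and maxilla was cut into a distal and a proximal end, which gave 8 groups of 3 single-colour expression arrays. The 4 knockout groups were mandible distal, mandible proximal, maxilla distal and maxilla proximal, and the 4 control groups were the same regions. Nothing in the labels ties replicate arrays to separate embryos, and p-values therefore measure only the spread between arrays, which may be technical.

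H2A.Z is a conserved H2A variant that the SRCAP and TIP60/p400 complexes exchange into nucleosomes around transcription start sites and at enhancers. Mammals make it from separate genes, H2az1 and H2az2, whose proteins are nearly identical, and both are transcribed outside S phase as polyadenylated mRNAs. H2A.X is the variant whose tail is phosphorylated around DNA breaks, and H2A.J is a mammalian variant known for its accumulation in senescent cells.

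The values were log2 signals, in which a difference of -1 is a halving of the signal, and the array medians lay between 7.26 and 7.38. By their deviation from the mean of all arrays, 7 of the 24 arrays correlated more with arrays from their jaw's opposite end than with their own group. Among them were all 4 arrays numbered 1 of knockout mandible and control maxilla. The Y-linked gene Eif2s3y read 10.2 to 10.4 in the 4 control arrays numbered 2 and at most 3.88 in the other 20. By this gene the control arrays numbered 2 held male tissue, unlike the other control arrays. No knockout array did, so sex was not balanced between the genotypes. Whether the ends of the 4 arrays numbered 1 were exchanged in the labels was not tested, and the labels were kept. Tgfbr2 itself averaged 12.11 ± 0.40 in knockouts and 11.78 ± 0.29 in controls (SD, n = 12 each). Whether its probes lie in the deleted exons is not known here, so this does not check the labels. All 4 H2A variant genes passed the filter on low signals, as did 7 of their 8 probe sets. Of 9 markers of facial mesenchyme, 8 passed it too.

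The upstream sequences of these genes are shown as background, and no link between the sequences and the genotype differences was tested. They are the 250 bases before the annotated start in RefSeq (mouse build GRCm38.p6), which held 3 of the 4 genes and not H2ax. Capitals mark the CCAAT motif, CCAAT or its complement ATTGG. The sequences are printed in the direction of transcription.
H2az2 (chr11:6444444-6444693, minus strand): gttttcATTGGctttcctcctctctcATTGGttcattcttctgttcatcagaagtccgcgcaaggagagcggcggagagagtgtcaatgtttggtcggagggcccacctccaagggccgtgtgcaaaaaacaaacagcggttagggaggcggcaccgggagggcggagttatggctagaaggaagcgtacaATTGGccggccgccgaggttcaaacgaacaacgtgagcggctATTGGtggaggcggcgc
H2az1 (chr3:137864237-137864486, plus strand): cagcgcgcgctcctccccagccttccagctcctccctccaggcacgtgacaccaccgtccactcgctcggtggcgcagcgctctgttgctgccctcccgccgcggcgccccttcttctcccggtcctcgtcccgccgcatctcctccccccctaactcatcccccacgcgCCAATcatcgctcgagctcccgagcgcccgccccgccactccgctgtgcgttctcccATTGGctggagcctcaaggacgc
H2aj (chr6:136807998-136808247, plus strand): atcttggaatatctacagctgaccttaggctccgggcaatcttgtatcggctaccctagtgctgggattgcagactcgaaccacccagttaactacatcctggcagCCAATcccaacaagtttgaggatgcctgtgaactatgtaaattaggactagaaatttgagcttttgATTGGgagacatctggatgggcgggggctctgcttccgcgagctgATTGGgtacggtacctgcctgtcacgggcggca
The H2az2 window held 4 CCAAT motifs, all written as ATTGG. At least 4 occurred in 0.840% of 32851 RefSeq windows of the same length. H2aj held 3, a count reached by 2.79% of the windows, and H2az1 held 2, a count reached by 10.1%. The GC box GGGCGG or its complement CCGCCC occurred once in H2az2 and H2az1 and at 2 places in H2aj, against 32.7% of windows with any. TATAAA or its complement TTTATA was in none of these 3 windows and in 12.4% of all. The share of G and C was 57.2% in H2az2, 71.2% in H2az1 and 51.6% in H2aj, and the median window had 52.4%.

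H2az2, which encodes the second H2A.Z protein, was lower in knockouts than in controls in all 4 regions. On its brighter probe set the knockout mandible distal arrays read 12.94, 13.07 and 13.08, against 13.53, 13.63 and 13.57 in the control arrays of that region. In mandible proximal the knockout arrays read 12.88, 13.19 and 13.14 and the control arrays 13.59, 13.65 and 13.60. Every knockout mandible array lay under every control mandible array. In maxilla distal the knockout arrays read 12.88, 13.04 and 12.90 and the control arrays 13.52, 13.48 and 13.47. In maxilla proximal the knockout arrays read 12.69, 12.99 and 13.03 and the control arrays 13.48, 13.55 and 13.56. All 12 knockout arrays lay below all 12 control arrays, with a gap of 0.28 between the highest knockout and the lowest control array. The knockouts averaged 12.98 ± 0.14 and the controls 13.55 ± 0.057 (SD, n = 12 each).

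The fitted difference over the 4 regions was -0.57 (SE 0.043), which is a signal 32.5% lower in knockouts. In the mandible it was -0.54 at the distal and -0.54 at the proximal end, and in the maxilla -0.55 at the distal and -0.63 at the proximal end (SE 0.085 in each). Of 14879 genes tested, 0.0134% had all knockout arrays below all control arrays, which were H2az2 and Zfp33b, and 0.0202% had all above. In the mean over the regions 0.47% of genes had an adjusted p under 0.05, 0.282% higher and 0.188% lower in knockouts. That count of 70 genes was unstable, with 6 to 2133 when 1 array was left out (2133 without knockout maxilla proximal 3), 6 with the replicate block as a random effect, 1102 with it as a fixed effect and 2906 with array weights. Since the gene was chosen on this contrast, nothing further is read from these shares.

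The second probe set of H2az2 showed a larger difference. Its knockout arrays read 8.87, 9.11 and 9.24 in mandible distal, against 9.97, 10.14 and 10.20 in controls. In mandible proximal they read 8.80, 9.56 and 9.23 in knockouts and 9.97, 10.08 and 10.19 in controls. The groups did not overlap at either end of the mandible, and the knockout arrays of the proximal end were the more scattered. In maxilla distal the values were 8.99, 9.53 and 9.33 in knockouts and 10.17, 10.12 and 10.32 in controls. In maxilla proximal they were 8.76, 9.63 and 9.25 in knockouts and 9.91, 10.20 and 10.18 in controls. Here too all 12 knockout arrays lay below all 12 control arrays, as for 0.0217% of 27655 probe sets, while 0.0145% had all above. The difference over the regions was -0.93 (SE 0.098), a signal 47.5% lower in knockouts, and it lay between -1.03 in mandible distal and -0.88 in maxilla proximal. Where the probes of either set lie in the transcript was not examined, since no genome was at hand.

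**Figure D1:**
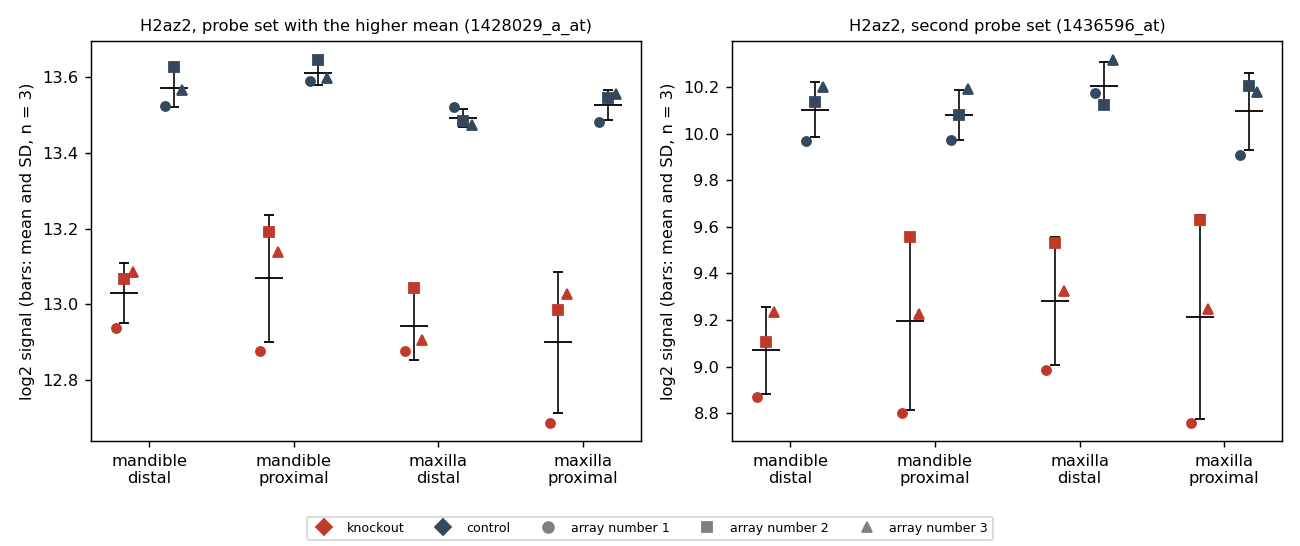
Log2 signal of H2az2 on its brighter (left) and second (right) probe set in each of the 24 arrays, by region, with knockout arrays left of control arrays in each region. Marker shape gives the array number, and the bars give the mean and SD of 3 arrays. All 12 knockout arrays lie below all 12 control arrays on both probe sets, and array number 1 is the lowest knockout array of every region.

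The plot of H2az2 by array also shows how the knockout arrays varied among themselves. On both probe sets the array numbered 1 was the lowest knockout array in 4 of 4 regions, and the lowest control array in 3 of 4. On the brighter probe set the knockout arrays numbered 1, 2 and 3 averaged 12.84, 13.07 and 13.04 over the regions, and the control arrays 13.53, 13.58 and 13.55. On the second they averaged 8.85, 9.46 and 9.26 in knockouts and 10.01, 10.14 and 10.22 in controls. The within-group SD of H2az2 was 0.139 in knockouts and 0.0384 in controls, a ratio of 3.62, against a median ratio of 1.25 over all genes. A larger ratio was seen for 2.24% of genes. The median SD over all genes was 0.143 in knockouts and 0.116 in controls. The high ratio thus came from a low SD in controls, while the SD in knockouts was ordinary. Both probe sets moved together in knockouts, with a Pearson correlation of 0.67 over 12 arrays, and not in controls (-0.030 over 12 arrays). Low values in knockout arrays numbered 1 were not particular to H2az2. Array 1 was the lowest knockout array in 3 of 4 regions for H2az1 and for H2ax, and in 1 of 4 for H2aj. The second H2aj probe set averaged 8.37, 8.97 and 8.78 in knockout arrays numbered 1, 2 and 3, against 8.80, 8.53 and 8.78 in controls. Arrays with the same number share a label, and whether they share an embryo is not given.

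The H2az2 difference was not called as unequal between the jaws or between the ends. The knockout difference of the mandible minus that of the maxilla was 0.047 (95% interval -0.13 to 0.23, adjusted p = 0.989), and distal minus proximal was 0.038 (-0.14 to 0.22, adjusted p = 1.00). These intervals show how far the regions could still differ. The test called 0.0336% of genes between the jaws and 0.00672% between the ends. On the second probe set the same differences were -0.055 and -0.093, and neither was called (adjusted p = 1.00 for both), as 0.0253% of probe sets were between the jaws and 0% between the ends.

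No difference of H2az2 between regions of the same genotype was called in the main fit. Group means ordered from knockout maxilla proximal (12.90), maxilla distal (12.94), mandible distal (13.03) and mandible proximal (13.07) to control maxilla distal (13.49), maxilla proximal (13.53), mandible distal (13.57) and mandible proximal (13.61). Neighbours in this order overlapped except at the step between the genotypes, where the knockout mandible proximal and control maxilla distal groups stood apart. Mandible minus maxilla was 0.13 in knockouts (SE 0.060, adjusted p = 0.124) and 0.082 in controls (SE 0.060, adjusted p = 0.317), where 25.4% and 30.9% of genes were called. Distal minus proximal lay between -0.040 and 0.042 in the 4 combinations of jaw and genotype, with adjusted p from 0.770 to 1.00. The test called 0 genes between the ends of the knockout mandible and of the control maxilla (72 and 103 with an unadjusted p under 0.05). In knockouts the difference between the jaws was called without the 4 arrays numbered 1 of knockout mandible and control maxilla, at 0.20. It was also called with array weights and in 1 of the 24 fits that left out 1 array.

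H2az2 carries the name of the driver used here in the reference gene table, which lists Wnt1-Cre and Tg(Wnt1-cre)11Rth among its synonyms, since that transgene is known to have integrated at this gene. All knockout embryos carried the transgene by the cross. The transgene and the loss of Tgfbr2 cannot be told apart in these arrays, because it is not known which controls carried it. Wnt1, part of which the transgene holds, lay below the filter, with 4.77 to 5.93 in knockouts (mean 5.22) and 4.90 to 5.37 in controls (mean 5.09).

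No tested gene next to H2az2 on chromosome 11 passed the test. The 5 nearest genes with a tested probe set on each side, by the order in the reference gene table, had a median difference of -0.011, beside 0.0082 for all genes, and 0 of 10 were called by limma (3 with an unadjusted p under 0.05, beside 3459 of 14879 genes). On one side, in order of distance, were Zmiz2, a coactivator of the PIAS-like family, with -0.19 (SE 0.060, adjusted p = 0.0872), Ogdh with -0.017, Tmed4 with 0.095, Ddx56 with -0.020 and Npc1l1 with -0.0053. On the other were Purb, a single-stranded DNA binding protein, with -0.0043 (SE 0.070, adjusted p = 0.977), Myo1g with -0.083, Ccm2 with -0.055, Nacad with 0.096 and Tbrg4 with -0.0053. Ppia, the cyclophilin A gene that lies next to H2az2 in the table, was measured only by a probe set that also matches Gm9234. It averaged 14.19 in knockouts and 14.22 in controls.

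H2az1, which encodes the first H2A.Z protein, showed a smaller and less regular difference. On its brightest probe set the knockout mandible distal arrays read 13.20, 13.48 and 13.46, against 13.69, 13.45 and 13.54 in controls. In mandible proximal the knockout arrays read 13.31, 13.29 and 13.34 and the control arrays 13.38, 13.29 and 13.56. The groups overlapped at both ends of the mandible. In maxilla distal the values were 13.57, 13.67 and 13.72 in knockouts and 13.60, 13.63 and 13.81 in controls, and these overlapped as well. In maxilla proximal they were 12.96, 13.31 and 13.48 in knockouts and 13.64, 13.55 and 13.56 in controls. Only this last region had every knockout array below every control array, as a share of 25.3% of genes did there in either direction.

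The H2az1 difference was -0.16 (SE 0.055) over the regions, a signal 10.4% lower in knockouts. In the mandible it was -0.18 at the distal and -0.097 at the proximal end, and in the maxilla -0.029 at the distal and -0.33 at the proximal end (SE 0.11). Single arrays moved these values by over 1.5 times. In mandible distal the value was -0.089 without knockout array 1, in mandible proximal it was -0.024 without control array 3 and -0.16 without control array 2, and in maxilla proximal it was -0.19 without knockout array 1. In maxilla distal it was -0.070 without control array 1 and turned to 0.037 without control array 3. A second probe set of H2az1 had a mean of 12.81 ± 0.15 in knockouts and 12.94 ± 0.20 in controls (SD, n = 12 each). Of the 2 probe sets annotated to both H2az1 and the predicted gene Gm8203, one averaged 14.02 in knockouts and 14.04 in controls, and the other averaged 12.51 in knockouts and 12.65 in controls. Such probes do not separate the copies, so these probe sets were left out.

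In the knockout maxilla H2az1 was higher at the distal than at the proximal end, by 0.40 (SE 0.11, adjusted p = 0.0414). This comparison called 6.16% of genes, 2.9% higher and 3.26% lower at the distal end. In the control maxilla the same difference was 0.098 (adjusted p = 1.00), in the knockout mandible 0.067 (adjusted p = 1.00) and in the control mandible 0.15 (adjusted p = 0.520, with 3.45% of genes called). As a mean of both jaws, the knockout difference of the distal minus that of the proximal ends was 0.11 (95% interval -0.12 to 0.34). It was not called (adjusted p = 1.00). This mean joins jaws that went opposite ways. The end difference was larger in knockouts than in controls in the maxilla (0.40 against 0.098) and smaller in the mandible (0.067 against 0.15). The maxilla alone was not tested for this. The call in the knockout maxilla was lost without knockout maxilla proximal 1, the lowest array of its group, with 0.26 (adjusted p = 0.225). It held in 14 of the 24 fits that left out 1 array. The second H2az1 probe set had 0.27 there (adjusted p = 0.214), where 3.51% of probe sets were called.

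Some markers of neurons, epithelium and glia also differed between the 2 ends of the knockout maxilla. Of 10 neuron markers, 5 were lower at the distal end, with a median difference of -1.80, and their mean score was -0.21 to 0.14 in distal and 1.22 to 3.09 in proximal arrays. Of 10 epithelial markers, 5 were higher, with a median of 1.87 and a score of 0.72 to 0.82 in distal and -1.64 to 0.066 in proximal arrays. Of 5 tested glial markers, 1 was lower, with a median of -0.91. The 12 skeletal muscle markers had a median of -2.05 and a score of -3.05 to 0.28 in distal and -0.65 to 2.22 in proximal arrays, with 0 called. The median was -0.71 for 9 macrophage, -0.29 for 8 endothelial, 0.56 for 8 facial mesenchyme and 0.065 for 6 erythroid markers, with 0 called in each. Of the 19 cell cycle genes tested, 0 were called there and 19 were higher at the distal end, with a median of 0.26. The part of these cells in the H2az1 difference was not tested. In bulk tissue, fewer cells of a type and less RNA per cell cannot be told apart.

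**Figure D2:**
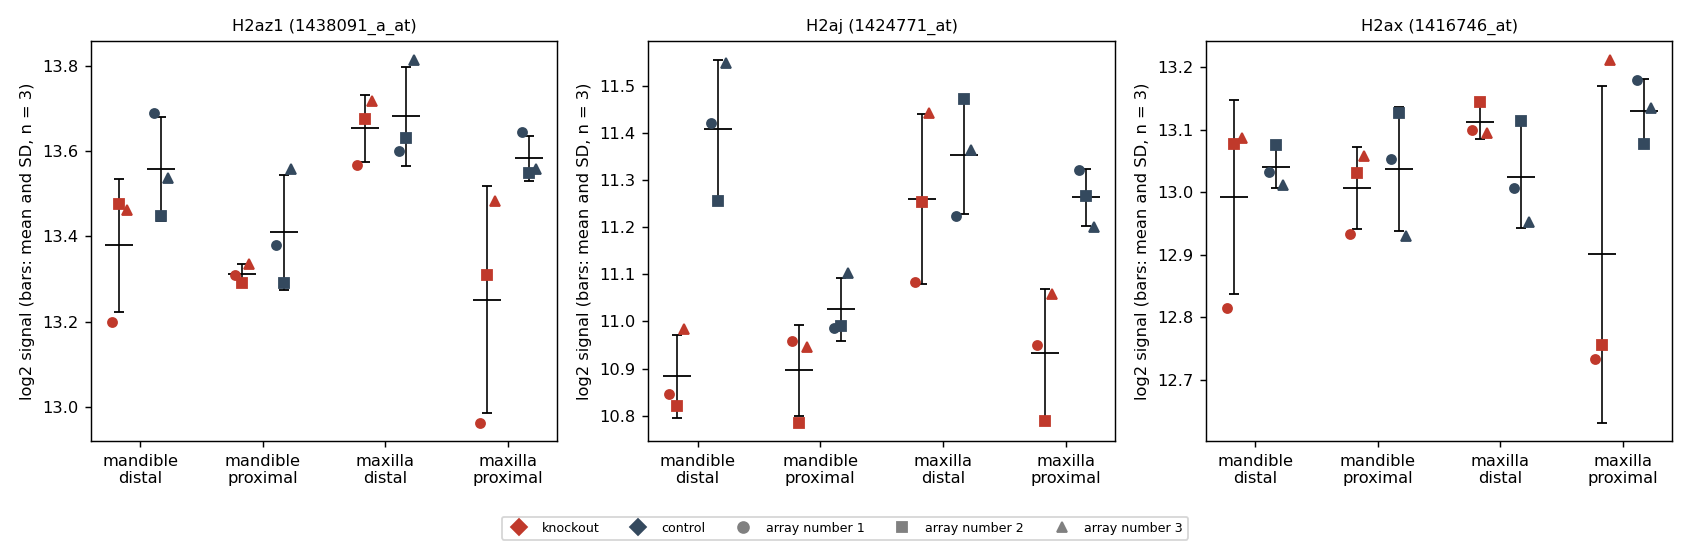
Log2 signal of H2az1, H2aj and H2ax in each of the 24 arrays, by region, with knockout arrays left of control arrays in each region. Marker shape gives the array number, and the bars give the mean and SD of 3 arrays. The knockout arrays of H2aj lie below the control arrays in 3 of the 4 regions, while H2ax overlaps in all 4.

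H2aj, the gene of the variant H2A.J, was lower in knockouts mainly at the distal end of the mandible and the proximal end of the maxilla, as the plot of the other variants by array shows. The knockout mandible distal arrays read 10.85, 10.82 and 10.98, against 11.42, 11.26 and 11.55 in controls. In mandible proximal the knockout arrays read 10.96, 10.78 and 10.95 and the control arrays 10.99, 10.99 and 11.10. The groups stood apart at both ends of the mandible, though by less at the proximal end. In maxilla distal the values were 11.08, 11.25 and 11.44 in knockouts and 11.22, 11.47 and 11.36 in controls, with overlap. In maxilla proximal they were 10.95, 10.79 and 11.06 in knockouts and 11.32, 11.27 and 11.20 in controls, without overlap. Groups that did not overlap in either direction were found for 14.5% (distal) and 9.45% (proximal) of genes in the mandible, and for 6.9% (distal) and 25.3% (proximal) in the maxilla.

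The H2aj difference was -0.27 (SE 0.049) over the regions. In the mandible it was -0.52 at the distal and -0.13 at the proximal end, and in the maxilla -0.093 at the distal and -0.33 at the proximal end (SE 0.097). The smaller values rested on single arrays, since mandible proximal had -0.074 without knockout array 2, and maxilla distal had -0.0050 without knockout array 1 and -0.18 without knockout array 3. This rested on the brightest of its 3 probe sets. The second averaged 8.70 ± 0.31 in knockouts and 8.70 ± 0.19 in controls (SD, n = 12 each), and its correlation with the brightest was -0.16 over 24 arrays. The third averaged 5.51 in knockouts and 5.54 in controls and did not pass the filter.

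Along the jaws, H2aj had its lowest group mean in knockout mandible distal (10.88) and its highest in control mandible distal (11.41). In between, in rising order, came knockout mandible proximal (10.90), knockout maxilla proximal (10.93), control mandible proximal (11.03), then knockout maxilla distal and control maxilla proximal (both 11.26) and control maxilla distal (11.35). Each of these groups overlapped its neighbours in that order. In the control mandible the distal end was higher by 0.38, and in the knockout mandible the difference was -0.012 (-0.068 to 0.019 with 1 array left out, 0.038 without the arrays numbered 1 of knockout mandible and control maxilla). These are given without a test, since mandible distal drew attention to the gene. In the maxilla, distal minus proximal was 0.33 in knockouts (SE 0.097, adjusted p = 0.0521) and 0.090 in controls (adjusted p = 1.00). The value in the knockout maxilla lay close to the threshold and passed it under 5 other settings and in 4 of the 24 fits that left out 1 array.

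The skeletal muscle score moved against H2aj across the arrays. Their correlation was -0.86 over all 24 arrays, which share tissue makeup, and that of H2az1 with the same score was -0.79. This was not particular to muscle. The macrophage score had -0.74 with H2aj and -0.79 with H2az1, and the glial score had -0.74 and -0.69. Neuron (-0.37 and -0.49) and endothelial scores (-0.51 and -0.55) were also negative. Erythroid (0.48 and 0.59), epithelial (0.43 and 0.58) and facial mesenchyme scores (0.52 and 0.49) were positive. In mandible distal the muscle score was 1.37 to 2.60 in knockouts and -2.64 to 1.06 in controls, and in maxilla proximal it was -0.65 to 2.22 in knockouts and -2.53 to -1.94 in controls. These were the regions with the larger H2aj differences. The glial score stood apart there too. In mandible distal it was -0.37 to 0.47 in knockouts and -1.44 to -1.14 in controls. In maxilla proximal it was 0.45 to 1.66 in knockouts and -0.73 to 0.21 in controls. In maxilla distal, where the H2aj difference was smallest, the muscle markers had a median difference of 1.29. The part of muscle or of the other cells in the H2aj difference was not tested.

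H2ax, which encodes H2A.X, overlapped between knockouts and controls in every region. The knockout mandible distal arrays read 12.81, 13.08 and 13.09, against 13.03, 13.08 and 13.01 in controls. In mandible proximal the values were 12.93, 13.03 and 13.06 in knockouts and 13.05, 13.13 and 12.93 in controls. One low knockout array, number 1, stood out in mandible distal. In maxilla distal the values were 13.10, 13.14 and 13.09 in knockouts and 13.01, 13.11 and 12.95 in controls. In maxilla proximal they were 12.73, 12.76 and 13.21 in knockouts and 13.18, 13.08 and 13.13 in controls. The knockout maxilla proximal group thus held both the lowest and the highest of all 24 values.

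The H2ax difference over the regions was -0.055 (SE 0.050). In the mandible it was -0.048 at the distal and -0.030 at the proximal end, and in the maxilla 0.088 at the distal and -0.23 at the proximal end (SE 0.10). With 1 array left out the values lay between -0.095 and 0.041 in mandible distal and between -0.083 and 0.015 in mandible proximal, so that neither has a settled direction. In maxilla distal they lay between 0.052 and 0.13, and in maxilla proximal between -0.38 (without knockout array 3) and -0.15 (without knockout array 1). None of the 8 comparisons between regions was called for H2ax, with distal minus proximal in the knockout maxilla at 0.21 (SE 0.10, adjusted p = 0.182). That difference had a value of -0.099 without knockout maxilla proximal 1 and 2.

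**Figure D3:**
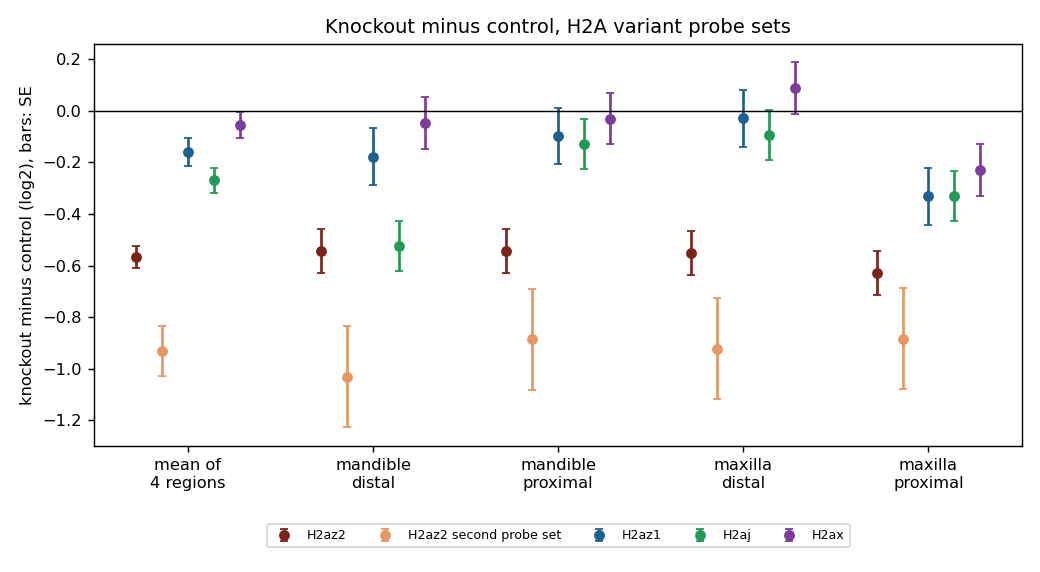
Knockout minus control difference in log2 signal for H2az2 (both probe sets), H2az1, H2aj and H2ax, as the mean of the 4 regions and in each region, with bars for the SE. Both H2az2 probe sets lie between -0.54 and -1.03 in every region, while H2az1, H2aj and H2ax vary with the region.

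The plot of knockout differences sets the genes side by side. H2az2 had a difference of like size in each region on both probe sets, H2az1 and H2aj had theirs in some regions, and H2ax had values on both sides of 0.

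No gene of the machinery that places H2A.Z passed the test. Of 26 genes for its deposition and removal, 25 were tested and 0 were called by limma, while 5 had an unadjusted p under 0.05, as did 3459 of all 14879 genes, the background for each such count over the regions. Their median difference was -0.054 with 4 positive, beside 7993 of 14879 genes positive overall. The smallest p-values belonged to Brd8, a bromodomain subunit of the TIP60 complex, with -0.15 (SE 0.040, adjusted p = 0.0659), Meaf6 with -0.12 (adjusted p = 0.0868) and Actl6a, an actin-related subunit, with -0.14 (adjusted p = 0.150). Of 8 readers and regulators of H2A.Z, 6 were tested, 0 were called (1 with an unadjusted p under 0.05) and the median was 0.027 with 5 positive. They included Setd6, a lysine methyltransferase that acts on H2A.Z, with -0.17 (SE 0.062, adjusted p = 0.121), Kmt5b with 0.083 and Mta1 with 0.030.

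Among genes that write, read or erase marks on H2A.X, 17 of 17 were tested, 0 rose and 1 fell. The median difference was -0.096 and 0 were positive, while 9 had an unadjusted p under 0.05. By region the median was largest in maxilla proximal, at -0.23. It was -0.078 in mandible distal, -0.047 in mandible proximal and -0.014 in maxilla distal. The gene that fell was Eya1, a tyrosine phosphatase of H2A.X and a coactivator of organ development. It averaged 11.04 ± 0.59 in knockouts and 11.57 ± 0.54 in controls (SD, n = 12 each), with a difference of -0.53 (SE 0.12, adjusted p = 0.0488). The call was lost with the replicate block as a random effect (adjusted p = 0.221 with an estimated correlation). It was kept in 5 of the 24 fits that left out 1 array, and without knockout maxilla proximal 1 and 2 its difference was -0.34 (adjusted p = 0.209).

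Other histone genes were not called either. Of 19 replication-dependent H2A genes only 2 were tested, H2aw with 0.17 (SE 0.054, adjusted p = 0.0880) and H2ac19 with -0.080 (adjusted p = 0.535), and their median was 0.047. Limma called 0 of them, and 1 had an unadjusted p under 0.05. Of 11 other variant histones, 8 were tested, 0 were called (3 with an unadjusted p under 0.05) and the median was -0.14 with 1 positive. Macroh2a2, a macroH2A gene, had -0.17 (SE 0.043, adjusted p = 0.0543), the centromeric Cenpa had -0.15 (adjusted p = 0.14) and Macroh2a1 had -0.083 (adjusted p = 0.192). Of 20 cell cycle genes, 19 were tested, 0 were called (8 with an unadjusted p under 0.05) and the median was -0.084 with 2 positive. Ccna2 had -0.15 (SE 0.048, adjusted p = 0.0983), Cdc20 -0.15 and Rrm2 -0.16. The cell cycle median was -0.22 in maxilla proximal, -0.083 in mandible distal, -0.053 in mandible proximal and -0.019 in maxilla distal.

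**Figure D4:**
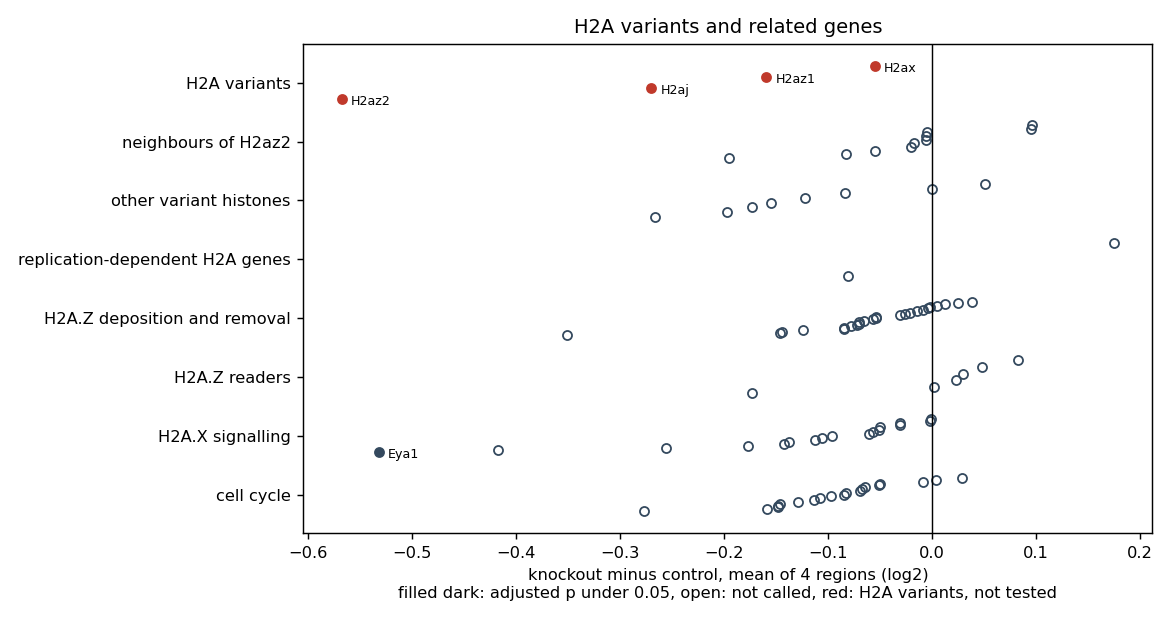
Knockout minus control difference over the 4 regions for the H2A variants (red, not tested) and for the tested genes of each related list, 1 point a gene on the log2 scale. Filled dark points had an adjusted p under 0.05 over all genes, which was Eya1 alone, and H2az2 lies at -0.57 beside neighbours between -0.19 and 0.096.

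The plot of related genes places H2az2 apart from every listed gene except Eya1, which had a difference of like size.

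Of the markers of other cells, limma called 3 between the genotypes over the regions, Nefl, Sncg and Cdh19. All 12 skeletal muscle markers had a positive difference with a median of 1.92 and 0 called (12 with an unadjusted p under 0.05), and their score was -3.05 to 2.60 in knockouts and -3.03 to 2.09 in controls. Of 10 neuron markers 2 were higher, Nefl and Sncg, with a list median of 0.28, and of 5 tested glial markers 1, Cdh19, was higher, with a list median of 0.59. Macrophage markers (0 of 9 called, 7 with an unadjusted p under 0.05) had a median of 0.33 and erythroid markers (0 of 6, 3) one of -0.41. Epithelial markers (0 of 10, 1) had -0.015, endothelial markers (0 of 8, 0) had 0.053 and facial mesenchyme markers (0 of 8, 2) had -0.21. For neurons and epithelium these means joined regions that went opposite ways. The neuron median was -1.19 in mandible proximal and 1.65 in maxilla proximal. The epithelial median was 0.99 in mandible proximal and -1.36 in maxilla proximal. The correlation of H2az2 with the muscle score was 0.073 in the 12 knockout arrays and 0.84 in the 12 control arrays. With the erythroid score it had 0.72 in the knockout and -0.21 in the control arrays. In the same order it had -0.18 and 0.80 with the macrophage score and -0.070 and 0.68 with the endothelial score. The epithelial score gave 0.29 and -0.64 and the neuron score -0.56 and 0.35. The glial score gave -0.38 and 0.40 and the facial mesenchyme score 0.43 and -0.12. The part of these cells in the H2az2 difference was not tested, and its difference was -0.53 without the 4 arrays numbered 1 of knockout mandible and control maxilla and -0.54 without knockout maxilla proximal 1 and 2.

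The pattern of H2az2 over the 24 arrays was most like that of Zfp33b, a zinc finger gene, with a Pearson correlation of 0.82. B3gnt4 followed with 0.78, 1700086O06Rik with 0.77, Taf7, a subunit of the general factor TFIID, with 0.75, and Wdr20 with 0.75. The most opposed were 2610524H06Rik with -0.86, Mpg, a DNA repair glycosylase, with -0.82, and Hemk1 with -0.80. Zfp33b averaged 7.78 in knockouts and 8.27 in controls, and its correlation with H2az2 was -0.28 within the 12 knockout arrays and 0.65 within the 12 control arrays. Mpg averaged 10.04 in knockouts and 9.64 in controls, and 2610524H06Rik averaged 10.52 in knockouts and 9.89 in controls. Within the control arrays their correlations with H2az2 were positive, 0.72 for Mpg and 0.84 for 2610524H06Rik. Within the knockout arrays they were 0.48 and -0.17. Hemk1 had -0.85 within controls and -0.56 within knockouts. Each of the correlations over 24 arrays rests on points that share the genotype.

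The other variants had other nearest patterns. H2az1 was most like Cdca8, a subunit of the chromosomal passenger complex, with 0.95, Ncapd3, a condensin subunit, with 0.94, and Wdr61 with 0.94. H2ax was most like Rpa1, which binds single-stranded DNA, with 0.89, Dusp7 with 0.88 and the mitotic kinase gene Cdk1 with 0.86. H2aj was most like Hars, a histidyl-tRNA synthetase, with 0.89, B130055M24Rik with 0.88 and Btnl9 with 0.88. Between H2az1 and the brighter H2az2 probe set the correlation was 0.42 over 24 arrays, 0.33 within knockouts and -0.87 within controls (n = 12 each). With the second H2az2 probe set H2az1 had 0.54, 0.46 and 0.26 in the same order. The negative value in controls thus held for 1 probe set of H2az2 and not for the other. H2az1 and H2ax had 0.56 over 24 arrays, with 0.80 within knockouts and -0.32 within controls.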

How the data were processed

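Labelled cRNA from 5 µg of total RNA was hybridised to single-colour arrays, per the labels' protocols. The deposited table holds log2 signals of 45101 probe sets in 24 arrays, which the authors made with RMA per the submitters' processing notes. Its version, and any genome build, are not stated there. No array was normalised again. Probe sets took their gene from the platform annotation: 34945 had 1 symbol, while 932 had several, 9160 had none and 64 were control probes, all of them unused. For each gene the probe set of highest mean stood in. It was tested if above the 30th percentile of its array in at least 3 arrays, which kept 14879 genes. Limma 3.58.1 in R 4.3.3 fitted 8 group means to all 24 arrays (16 residual degrees of freedom) and gave two-sided moderated tests, with Benjamini-Hochberg adjustment over all genes and a threshold of 0.05. A second fit over 27655 probe sets gave the values of further probe sets. The score of a marker list in an array is the mean over its tested genes of log2 signal minus the gene's mean over the 24 arrays. The fits were tested on simulated data.

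The members and the lists were chosen with earlier results of these data known. Named genes were the members, the genes of each list that were called or else the 3 with the smallest p, the 5 tested neighbours on each side of H2az2, and the patterns most like or opposed to a member by correlation. The array number did not settle a pairing: arrays of the same genotype and number had a median correlation of deviations of 0.15, with a lowest of -0.65 over 36 pairs. Some values did go with the number: Eif2s3y was high in the control arrays numbered 2 alone, and the erythroid score was -0.78 to -0.71 in the 4 knockout arrays numbered 1 and -0.11 to 0.39 in the other 8. Precision is limited by 3 arrays a group.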

Additional observations from a re-analysis of the deposited data

How the results depend on the processing

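The members' differences were recomputed under each alternative. Leaving out 1 array moved the H2az2 difference between -0.58 and -0.54 over the regions and between -0.69 and -0.52 in maxilla proximal. With the mean of all probe sets, H2az2 had -0.75 over the regions and -0.79, -0.71, -0.74 and -0.76 in mandible distal, mandible proximal, maxilla distal and maxilla proximal. Its knockout difference between jaws became -0.0043 and between ends -0.028, its control maxilla ends 0.037, H2aj over the regions -0.10 and in the control maxilla ends -0.020, and H2az1 in the knockout maxilla ends 0.33 (not called). Without knockout maxilla proximal 1 and 2, H2az2 had -0.50 in maxilla proximal, -0.017 and -0.026 between jaws and ends, and -0.085 in the knockout maxilla ends. H2az1 then had -0.074, -0.0051 and 0.17 (not called) in the same order of comparisons, and H2ax -0.12, -0.0058 and -0.099, with 0.082 in maxilla proximal.

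Array weights gave calls for H2az2 between jaws in knockouts (0.13), H2az1 between jaws in controls (-0.14), H2aj (0.37) and H2ax (0.31) in the knockout maxilla ends, and turned H2ax to 0.070 between jaws in knockouts, 0.012 in the knockout mandible ends and -0.018 in the control mandible ends. Without control maxilla 1 and knockout mandible 1, H2az2 between jaws in knockouts was called (0.20), and H2ax had 0.056 there and 0.037 in the knockout mandible ends. Centred medians turned H2ax to 0.038 and 0.013 between jaws in knockouts and controls and to -0.022 in the control mandible ends, where cyclic loess gave -0.0012. Centred medians, the trend and robust prior and either replicate block called H2aj in the knockout maxilla ends (0.33). Without the 4 control arrays numbered 2, H2az1 was not called there (0.40).

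Leaving out 1 array, H2az1 had 0.26 to 0.52, H2aj 0.24 to 0.42, H2ax 0.13 to 0.37 and H2az2 -0.064 to 0.11 in the knockout maxilla ends. In the knockout mandible ends H2az2 had -0.14 to 0.021 and H2ax -0.062 to 0.074, and in the control mandible ends H2ax had -0.050 to 0.048. Between jaws in knockouts the ranges were 0.075 to 0.18 for H2az2 and -0.049 to 0.071 for H2ax. The knockout difference between jaws lay at -0.0066 to 0.095 for H2az2, -0.030 to 0.10 for H2az1 and -0.0098 to 0.11 for H2ax, and between ends at -0.016 to 0.070 for H2az2.

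Called list genes moved too. With 1 array left out there were 0 to 6 for the cell cycle, 0 to 4 for H2A.X signalling and for H2A.Z deposition, 0 to 1 for H2A.Z readers and replication-dependent H2A, and 0 to 2 for other variants and neighbours. Array weights called 3 cell cycle, 3 H2A.X, 2 deposition, 1 other variant, 1 replication-dependent and 3 neighbouring genes. The replicate block as a fixed effect called 1, 3, 1 and 2 of the first 4 lists and 1 neighbour. The filter at the 50th percentile and the trend and robust prior called 1 other variant. H2A.X signalling had 0 with no filter, with the mean of all probe sets, with the replicate block as a random effect (correlation 0.16) and in each of the 3 fits without several arrays. All genes called over the regions numbered 70, against 165 with cyclic loess, 258 with the filter at the 50th percentile, 192 with the trend and robust prior, 2906 with array weights, 1102 and 6 with the replicate block fixed and random, 23 without control maxilla 1 and knockout mandible 1, 20 without the control arrays numbered 2, 8 without knockout maxilla proximal 1 and 2, and 6 to 2133 with 1 array left out. A further 661 results under other settings and 1375 with 1 array left out kept their direction and side of the threshold or, where untested, moved by less than the spread between replicates. Some untested values near 0 changed sign within that spread: H2az1 in maxilla distal (-0.070 to 0.037), H2ax in mandible distal (-0.095 to 0.041) and proximal (-0.083 to 0.015) and H2aj in the knockout mandible ends (-0.068 to 0.019). Causes were not tested. With 3 arrays a group the members' differences within a region had SEs of 0.085 to 0.11 on their brightest probe sets, so differences of that size are not resolved.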

Other observations

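Between the jaws, where the test called 25.4% of genes in knockouts and 30.9% in controls, the related lists moved without a common direction for the H2A.Z machinery. Of the 25 tested genes for H2A.Z deposition and removal, 1 was higher and 2 were lower in the mandible than in the maxilla in knockouts, and 4 were higher and 3 lower in controls. Of the 19 tested cell cycle genes, 7 were higher in the mandible in knockouts (median 0.12) and 5 in controls (median 0.054), with 0 lower in either genotype. Of the 17 tested genes of H2A.X signalling, 1 was higher and 3 were lower in knockouts, and 1 was higher and 4 were lower in controls. In the knockout maxilla Eya1 was higher at the distal than at the proximal end by 1.06 (SE 0.23, adjusted p = 0.0192), and so was Mre11a, a nuclease subunit of the complex that senses DNA breaks, by 0.28 (SE 0.081, adjusted p = 0.0478). Mre11a was named after its values were seen.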
